A study of Mus musculus with 14 samples.

Results

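Genes of the glutathione system were followed through mouse embryos made by fertilisation (IVF) or by somatic cell nuclear transfer (SCNT): 10 of the 22492 gene symbols of a deposited expression table. They are the glutathione transferase genes Gstm1, Gstm2 and Gsta4, the glutathione peroxidase genes Gpx1, Gpx2 and Gpx4, and the genes of glutathione synthesis and recycling Gclc, Gclm, Gss and Gsr. These members were chosen by symbol, from a list made with earlier results of these data in view, and the measured values behind that choice included the level of Gstm1 in SCNT 2-cell against IVF 2-cell embryos. That comparison is therefore given for every member as a description, with no test. For Gstm1 every other comparison that uses those SCNT 2-cell or IVF 2-cell libraries is also given without a test, and counts of members there are over the other 9.

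Glutathione is a small peptide with a free thiol group and is the main soluble thiol of most cells. Glutamate-cysteine ligase, made of the catalytic subunit Gclc and the modifier subunit Gclm, joins glutamate and cysteine, and glutathione synthetase (Gss) adds glycine. Glutathione peroxidases spend glutathione to reduce peroxides, glutathione reductase (Gsr) restores the oxidised form with NADPH, and glutathione transferases join glutathione to electrophilic compounds. The oocyte stores glutathione and transcripts that the early embryo uses until its own genome is transcribed, which in mouse happens mainly at the 2-cell stage.

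RNA was sequenced in 14 libraries, 2 for each of 7 groups. Donor cumulus cells, the ovarian cells around the oocyte, were of strain (C57BL/6J x CAST/EiJ) F1 per the strain labels and were pooled at about 1000 cells a library; the growth protocol names BDF1 females as their source, and the sources used here do not settle which holds. IVF embryos at the 1-cell stage (32 and 31 embryos pooled) and 2-cell stage (25 and 25) came from C57BL/6J oocytes and CAST/EiJ sperm. SCNT embryos carried such a donor nucleus in a B6D2F1 oocyte and were taken at the 1-cell stage (36 and 36 embryos) and 2-cell stage (40 and 40). In 2 further SCNT 2-cell groups, of 25 embryos a library, Kdm4d, a histone H3 lysine 9 demethylase, or a mutant form of it was overexpressed. The labels name neither the mutation nor how overexpression was done. No 1-cell group had overexpression, so between SCNT 1-cell embryos and these groups stage and overexpression cannot be told apart. No animal age is given, and the oocyte strain and the way of making the embryo cannot be told apart between IVF and SCNT embryos. Nothing in the labels says that replicates were separate experiments, so p-values measure the spread between these libraries, which may be technical.

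Levels are FPKM, fragments scaled to transcript length and to the mapped fragments of the library. Differences are on the log2(FPKM + 1) scale, which understates the change of genes at low level, and come with the standard error (SE) of limma's model across 13453 genes; a member was called where the Benjamini-Hochberg adjusted p was under 0.05. All 10 members passed the filter of at least 1 FPKM in at least 2 libraries, but only 5 reached 1 FPKM in all 14. Gpx2 passed through the SCNT 2-cell and mutant Kdm4d groups and Gstm2 through donor cells and the mutant Kdm4d group, so those genes had to differ somewhere. The absolute depth is unknown. The relative depth, read from the spacing of low FPKM values, ranged from 0.415 in a Kdm4d library to 1 in an IVF 1-cell library, and all 4 libraries with overexpression lay at 0.507 or below. Replicates correlated at a Spearman rho of 0.932 to 0.988 across genes, lowest in the mutant Kdm4d group. The robust SD of replicates on the log2 scale was 0.359 in the Kdm4d group, 0.371 in the mutant group and 0.0924 to 0.182 in the others. The SE pools the spread of all 7 groups, so for comparisons of the overexpression groups it may be too low and the p-values too small. A limma fit to the Kdm4d and mutant Kdm4d libraries alone called 0 of the 13453 genes. Kdm4d itself was under 1 FPKM in every library without overexpression, at 8879 and 2255 FPKM in the Kdm4d group and at 723 and 283 in the mutant group, so the amount of transcript differed between those groups as well as the mutation.

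**Figure D1:**
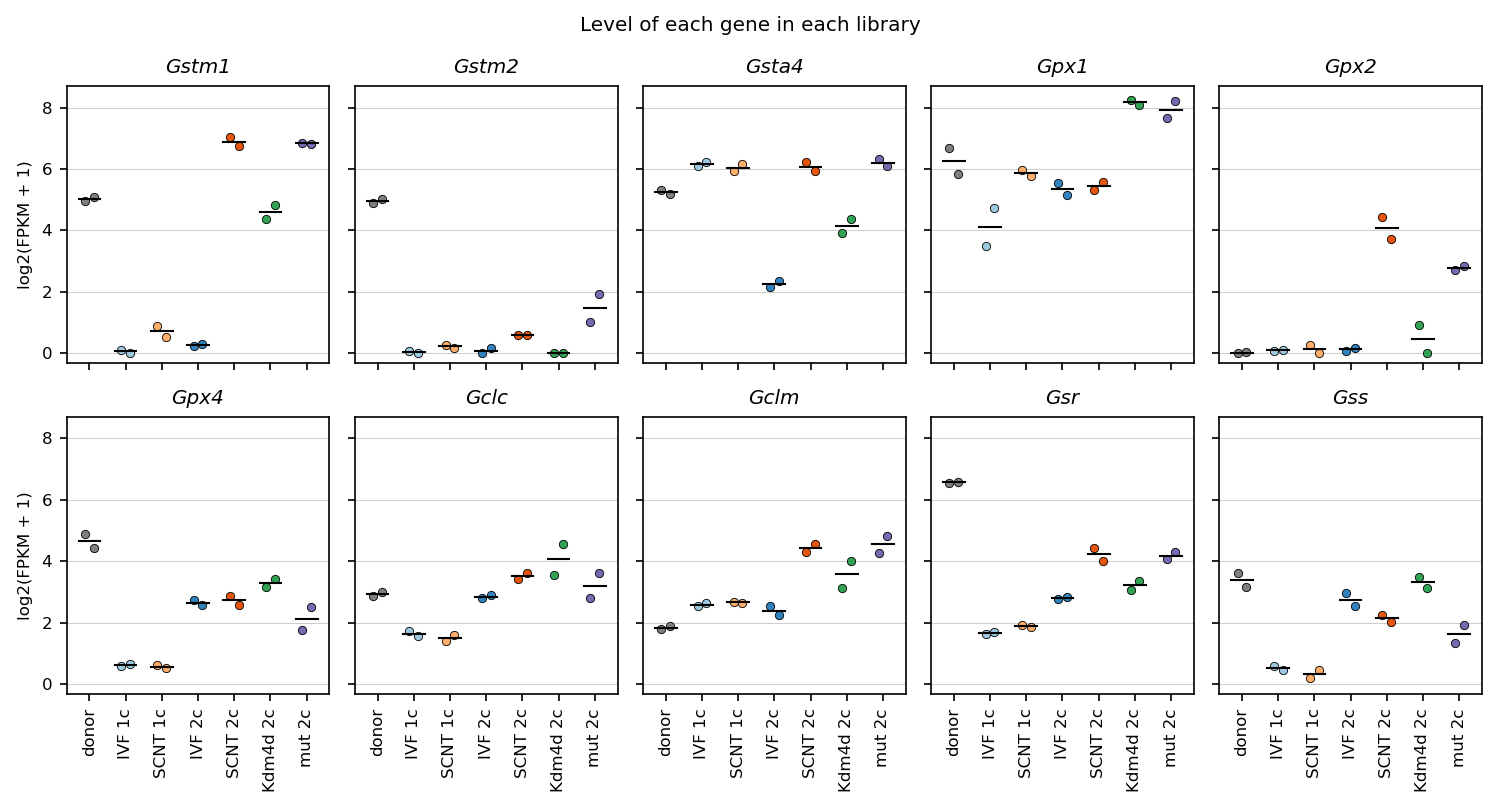
Level of each of the 10 genes in each of the 14 libraries, on the log2(FPKM + 1) scale; points are libraries, black lines the mean of the 2 libraries of a group (1c and 2c, 1-cell and 2-cell; Kdm4d and mut, SCNT embryos with Kdm4d or mutant Kdm4d). Gstm1 and Gsta4 were low in IVF 2-cell embryos, high in SCNT 2-cell and mutant Kdm4d embryos and in between with Kdm4d, whereas Gpx1 was highest in both groups with overexpression.

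Gstm1 encodes a mu-class glutathione transferase and lies at chr3:107815168-107820891 (build mm9). It was at 29.8 and 32.7 FPKM in donor cumulus cells, at 0.0843 and 0.0181 in IVF 1-cell embryos, and at 0.857 and 0.458 in SCNT 1-cell embryos. At the 2-cell stage it was at 0.173 and 0.234 FPKM in IVF embryos and at 131 and 106 in SCNT embryos. Kdm4d SCNT embryos had 19.7 and 27.7 FPKM and mutant Kdm4d embryos 115 and 112. The SCNT 2-cell and mutant Kdm4d libraries thus overlapped at the top, donor cells came next, and every Kdm4d library lay below every donor library and above every library of the other 3 groups. Set against the donor mean, the mean of Gstm1 was 2.1% in SCNT 1-cell and 378% in SCNT 2-cell embryos, 75.8% with Kdm4d and 361% with its mutant form.

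Comparisons that the choice of members did not use were tested for Gstm1. Kdm4d embryos were lower than mutant Kdm4d embryos (log2 difference −2.23, SE 0.19, limma adjusted p = 1.56e-05), with a level 4.77-fold higher in the mutant group. In a limma fit to these 2 groups alone the adjusted p was 0.0616, where 0 of 13453 genes were called, and with group weights it was 0.00184. From SCNT 1-cell embryos Gstm1 rose by 3.89 to the Kdm4d group (SE 0.19, limma adjusted p = 1.21e-08) and by 6.12 to the mutant group (SE 0.19, limma adjusted p = 4.8e-09). Donor cells exceeded IVF 1-cell embryos by 4.94 (SE 0.19, limma adjusted p = 2.53e-10). The difference between SCNT and IVF 1-cell embryos was 0.65 (SE 0.19, limma adjusted p = 0.11), with both SCNT libraries higher and all 4 below 1 FPKM. It passed the test in 3 of 10 alternative settings. Among them were group weights, which let the groups differ in spread (limma adjusted p = 0.000978), and a limma fit to those 4 libraries alone (adjusted p = 0.0408). The share of all genes called also rose, from 2.31% to 30.3% with group weights and to 20.6% in the fit to those 4 libraries. As a description, SCNT 2-cell exceeded IVF 2-cell embryos by 6.62.

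Cumulus markers were read beside this gene. The summed FPKM of 18 cumulus and granulosa marker genes was 20360 and 26690 in the donor libraries, with no marker at 0 there. Relative to that level the sum was 0.0348% at the IVF 1-cell and 0.32% at the SCNT 1-cell stage. Of 17 markers tested, 6 were called higher in SCNT than in IVF 1-cell embryos and 0 lower, where 1.34% of all genes were called higher. At the 2-cell stage the sum was 0.344% for SCNT embryos, 0.533% for IVF embryos, 0.789% with Kdm4d and 0.393% with the mutant. The SCNT 2-cell libraries summed to 76.5 and 85.6 FPKM over these markers, below the 122 to 129 of IVF 2-cell libraries. No marker of the list was at 0 in both SCNT 2-cell libraries and 9 were below 1 FPKM; Foxl2 and Amh were at 0 in the IVF 2-cell group, Foxl2, Fshr and Amh with Kdm4d, and Hsd3b1 and Foxl2 with the mutant. The part of cumulus RNA in the values of Gstm1 and the other members was not tested.

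Other marker lists moved with the 2-cell groups. A list of 8 immune markers summed to 33.4 to 41.6 FPKM in SCNT 2-cell, 13.8 to 14.7 in IVF 2-cell, 26.1 to 36.4 in Kdm4d and 39.8 to 52.0 in mutant libraries; Ptprc and Tyrobp were at 0 in both the IVF 2-cell and Kdm4d groups, and Cd14 in the mutant group. The 2 oviduct markers present in the table summed to 4.93 to 5.78 FPKM in SCNT 2-cell, 1.83 to 2.20 in IVF 2-cell, 1.25 to 3.23 in Kdm4d and 3.43 to 8.82 in mutant libraries, with Foxj1 at 0 in IVF 2-cell embryos. Sums over 16 oocyte and zygote markers, none of them at 0, were 2863 to 2888 FPKM in SCNT 2-cell, 7978 to 8288 in IVF 2-cell, 8729 to 8878 in Kdm4d and 5077 to 9383 in mutant libraries. Endothelial markers summed to 5.25 to 5.97 FPKM in SCNT 2-cell, 1.46 to 1.70 in IVF 2-cell, 1.34 to 3.16 in Kdm4d and 3.16 to 6.46 in mutant libraries. At the 1-cell stage they summed to 5.215 to 5.345 FPKM in IVF and 4.698 to 4.721 in SCNT libraries. Red blood cell markers summed to at most 2.63 FPKM in any embryo library. The part of these lists in the results was not tested. In pooled embryos, fewer cells with a transcript and less of it per cell cannot be told apart.

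Gstm2, the mu-class gene at chr3:107784620-107789354, was high in donor cells only, at 29.0 and 31.7 FPKM. In embryos its highest values were 1.04 and 2.81 FPKM with mutant Kdm4d, followed by 0.509 and 0.526 in SCNT 2-cell embryos. It was at 0.203 and 0.142 in SCNT 1-cell, at 0.0654 and 0 in IVF 1-cell and at 0 and 0.137 in IVF 2-cell embryos. Both Kdm4d libraries were listed at 0. Gstm2 therefore did not follow the level of Gstm1, although at the 2-cell stage the Kdm4d libraries were below the mutant ones for both (Gstm2 difference −1.48, SE 0.23). Only donor cells and the mutant Kdm4d group let Gstm2 pass the filter. Its calls for the mutant group therefore add no support and are given without p. Against SCNT 2-cell embryos the mutant group was higher by 0.88 (SE 0.23). That call was lost with equal FPKM sums and with group weights, and without mutant replicate 2 the difference was 0.42.

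The sequences before the RefSeq start sites are shown for the mu-class pair because these neighbours differed in level (build GRCm38.p6, minus strand, from 120 bases before the start to the last base before it). Capitals mark CCAAT on either strand (written ATTGG where it lies on the other strand) and TATAAA on either strand. RefSeq lists 2 start sites for Gstm1, and the stretch belongs to the one whose 250 bases hold TATAAA.
Gstm1, chr3:108017819-108017938: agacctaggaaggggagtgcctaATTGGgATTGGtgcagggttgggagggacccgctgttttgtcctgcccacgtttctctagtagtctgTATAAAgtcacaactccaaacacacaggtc
Gstm2, chr3:107986421-107986540: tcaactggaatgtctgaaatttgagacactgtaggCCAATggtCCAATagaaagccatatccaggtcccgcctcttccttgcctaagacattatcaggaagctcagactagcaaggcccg
Both hold a closely spaced CCAAT pair, on opposite strands, and the Gstm1 stretch also holds TATAAA. Over all 32851 promoters of the table, the 250 bases before the start hold CCAAT in 33.8% and TATAAA in 12.4%. The capitals mark matching letters and say nothing of whether a factor binds.

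Gstm1 and Gstm2 belong to a cluster of 7 Gstm genes on chromosome 3, and the other 5 were read beside them. In the Kdm4d against mutant Kdm4d comparison all 5 were called lower, from Gstm3 (log2 difference −0.71, SE 0.21) to Gstm6 (−2.19, SE 0.26, limma adjusted p = 8.65e-05), where 43.8% of all tested genes were called and 22.5% were called lower. Gstm3 reached 1 FPKM only in SCNT 2-cell and mutant Kdm4d libraries. It was thus tested through a group where it was high, and its call adds no support. A limma fit to the Kdm4d and mutant Kdm4d libraries alone called 0 of the 13453 genes (3891 had an unadjusted p under 0.05). Gstm6 was at 0.686 and 0.327 FPKM with Kdm4d and at 5.03 and 6.67 with the mutant, at 4.17 and 6.68 in SCNT 2-cell and at 0.149 and 0 in IVF 2-cell embryos. Unlike Gstm1 it was already at 5.001 and 4.55 FPKM in IVF 1-cell embryos, so the low IVF 2-cell level followed a high 1-cell level. Gstm4 was at 0.488 and 0.913 FPKM with Kdm4d, 3.60 and 3.26 with the mutant, 4.94 and 2.82 in SCNT 2-cell and 0.412 and 0.331 in IVF 2-cell embryos. Gstm7 was at 0 and 0.0402 FPKM with Kdm4d, 2.02 and 1.58 with the mutant, and listed at 0 in both IVF 2-cell libraries. At 6 of the 7 genes, Gstm5 being the exception, every IVF 2-cell and Kdm4d library lay below every SCNT 2-cell and mutant library. In these libraries Gstm2 was at 2.81 FPKM or less, Gstm3 at 2.94 or less and Gstm7 at 3.49 or less. Of all tested genes 18.9% showed the same order of libraries. The level of Gstm1 in SCNT against IVF 2-cell embryos was known when the members were chosen. Gstm2 and Gstm3 passed the filter only through groups where they were high. The order is therefore a description and adds no support. Gstm5 was at 29.1 FPKM or more in every library.

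**Figure D2:**
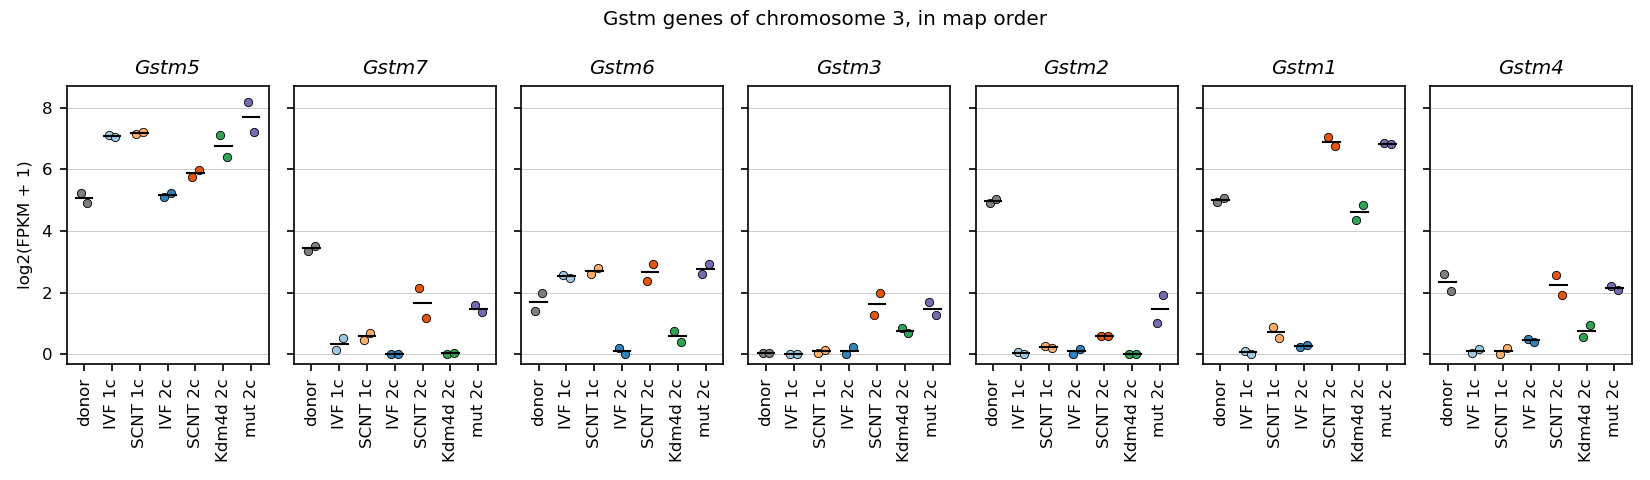
Levels of the 7 Gstm genes of chromosome 3 in map order, on the log2(FPKM + 1) scale; points are libraries, black lines group means, group names as in the plot of the 10 genes. In Gstm6, Gstm3, Gstm1 and Gstm4 the Kdm4d and IVF 2-cell libraries lie below the SCNT 2-cell and mutant Kdm4d libraries, while Gstm5 was at 29.1 FPKM or more in every library.

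Sequence shared between these genes limits how reads of 50 bases can be assigned, and the sources used here do not say how reads that map to several places were treated. Of the 50-base stretches of Gstm1 transcripts, 18.9% also occur in another gene, mostly the pseudogene Gstm2-ps1 and Gstm3. The share was 28.8% for Gstm3, 5.65% for Gstm2 and 0 for Gstm4. Gstm1 and Gstm3 values are uncertain to that extent, and the row of Gstm5 overlaps that of 4933431E20Rik.

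Gsta4, an alpha-class transferase that acts on lipid peroxidation aldehydes such as 4-hydroxynonenal, lies at chr9:78039773-78057156 and shares no 50-base stretch with another gene. Its level was already high at the 1-cell stage, at 67.6 and 73.7 FPKM in IVF and 59.6 and 69.9 in SCNT embryos. In IVF 2-cell embryos it was at 3.44 and 4.11 FPKM, a fall of 18.7-fold (log2 difference −3.91, SE 0.18, limma adjusted p = 5.18e-09). In SCNT 2-cell embryos it was at 73.1 and 60.3 FPKM and overlapped the SCNT 1-cell libraries (0.04, SE 0.18, limma adjusted p = 0.859). That difference depended on the scaling and passed the test as a rise under quantile normalization (0.73, limma adjusted p = 0.00206) and with equal FPKM sums (0.81). Kdm4d embryos had 14.04 and 19.6 FPKM and mutant Kdm4d embryos 78.5 and 67.2. Gsta4 thus fell between the stages in IVF embryos. It was also lower in Kdm4d 2-cell than in SCNT 1-cell embryos (−1.90, SE 0.18, limma adjusted p = 2e-06), where stage and overexpression cannot be told apart. The Kdm4d level remained 4.45-fold above the IVF 2-cell level (1.89, SE 0.18, limma adjusted p = 6.9e-05). Against the mutant group the Kdm4d level was lower by 4.33-fold (−2.07, SE 0.18, limma adjusted p = 1.73e-05). Donor cells, at 38.5 and 35.4 FPKM, were lower than IVF 1-cell embryos (−0.92, SE 0.18, limma adjusted p = 0.000477); under quantile normalization the difference was −0.42 (limma adjusted p = 0.0336).

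Gpx2 encodes a selenium-dependent peroxidase best known from the gut epithelium and lies at chr12:77893322-77896541. Its level was at 20.6 and 12.2 FPKM in SCNT 2-cell embryos and at 5.57 and 6.12 with mutant Kdm4d. With Kdm4d it was at 0.880 and 0, and in the remaining 8 libraries, donor cells included, it was between 0 and 0.199 FPKM. Gpx2 was thus high in 2 of the 4 kinds of 2-cell embryo and near 0 in cumulus cells and at the 1-cell stage. Gpx2 passed the filter only through the SCNT 2-cell and mutant Kdm4d groups. Its calls for these against groups near 0 therefore add no support and are given without p, though the counts of members include them. Gpx2 rose from SCNT 1-cell to SCNT 2-cell embryos by 3.94 (SE 0.28) and to mutant Kdm4d embryos by 2.64 (SE 0.28). From the 1-cell stage to Kdm4d embryos the difference was 0.32 (SE 0.28, limma adjusted p = 0.329). Kdm4d embryos were lower than mutant Kdm4d embryos (−2.32, SE 0.28) and lower than SCNT 2-cell embryos (−3.62, SE 0.28). Mutant Kdm4d embryos were in turn lower than SCNT 2-cell embryos (−1.3, SE 0.28, limma adjusted p = 0.0107), which without SCNT 2-cell replicate 1 was −0.94 (adjusted p = 0.0938).

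The stretch before the Gpx2 start site is shown because its transcript was near 0 before the 2-cell stage (GRCm38.p6, minus strand, capitals as above).
Gpx2, chr12:76795555-76795674: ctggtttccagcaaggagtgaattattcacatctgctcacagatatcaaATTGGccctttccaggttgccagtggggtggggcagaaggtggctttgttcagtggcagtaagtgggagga
It holds 1 CCAAT on the other strand and no TATAAA. Of the 10 members 7 have an entry in the RefSeq promoter table and 5 of these hold CCAAT; Gstm1 alone holds TATAAA.

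Gpx1, the widespread cytosolic peroxidase at chr9:108241411-108242673, followed another order. It was at 101 and 56.4 FPKM in donor cells, and at the 1-cell stage at 10.4 and 25.8 in IVF and 61.2 and 53.9 in SCNT embryos. At the 2-cell stage it was at 45.3 and 34.7 FPKM in IVF and 38.8 and 46.4 in SCNT embryos. It was at 303 and 270 FPKM with Kdm4d and at 200 and 295 with mutant Kdm4d. Both groups with overexpression lay above all other libraries and overlapped each other (0.23, SE 0.36, limma adjusted p = 0.63). Against SCNT 2-cell embryos Gpx1 rose 6.72-fold with Kdm4d (2.72, SE 0.36, limma adjusted p = 0.000166) and 5.81-fold with the mutant (2.49, SE 0.36, limma adjusted p = 0.00199), the latter lost in a fit to those groups alone (adjusted p = 0.168) and with group weights (adjusted p = 0.0913). The 2 overexpression groups also had the lowest relative depth and smaller embryo pools than the SCNT 2-cell group, and the part of these in the result was not tested. Gpx1 was higher in SCNT than in IVF 1-cell embryos (1.74, SE 0.36, limma adjusted p = 0.032); this call was lost without IVF 1-cell replicate 1 (1.12, adjusted p = 0.277), SCNT 1-cell replicate 1 (adjusted p = 0.238) or SCNT 1-cell replicate 2 (adjusted p = 0.184).

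Gpx4, at chr10:79516255-79519184, reduces lipid peroxides in membranes and is required for embryonic development. It was at 29.0 and 20.8 FPKM in donor cells, at 0.501 and 0.579 in IVF 1-cell and at 0.546 and 0.435 in SCNT 1-cell embryos. At the 2-cell stage it was at 5.69 and 4.96 FPKM in IVF, 6.41 and 4.95 in SCNT, 8.04 and 9.77 with Kdm4d and 2.38 and 4.74 with the mutant. Gpx4 thus rose between the stages in both kinds of embryo, by 2.04 in IVF (SE 0.25, limma adjusted p = 1.62e-05) and 2.16 in SCNT embryos (SE 0.25, limma adjusted p = 1.37e-05), and IVF and SCNT 2-cell libraries overlapped. Kdm4d embryos were 2.50-fold above mutant Kdm4d embryos (1.16, SE 0.25, limma adjusted p = 0.0033). Of its 50-base stretches 34.7% also occur in the pseudogene Gpx4-ps2, so its level is uncertain.

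The genes of glutathione synthesis, Gclc, Gclm and Gss, each rose from the SCNT 1-cell stage to all 3 kinds of SCNT 2-cell embryo (limma). Gclc (chr9:77602342-77642296) was at 2.31 and 1.98 FPKM in IVF 1-cell and 1.65 and 2.07 in SCNT 1-cell embryos. It was at 5.96 and 6.50 FPKM in IVF 2-cell, 9.72 and 11.2 in SCNT 2-cell, 10.9 and 22.7 with Kdm4d and 6.01 and 11.3 with the mutant, against 6.33 and 6.99 in donor cells. Gclc rose from the 1-cell stage in IVF (1.20, SE 0.31, limma adjusted p = 0.00409) and SCNT embryos (2.00, SE 0.31, limma adjusted p = 0.000119). Its call between Kdm4d and mutant Kdm4d embryos (0.85, SE 0.31, limma adjusted p = 0.0415) was one in which the libraries overlapped. Without Kdm4d replicate 2 that value was 0.36 (adjusted p = 0.369) and without mutant replicate 1 it was 0.45 (adjusted p = 0.297).

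Gclm (chr3:121948510-121969566), the modifier subunit, was at 4.84 and 5.27 FPKM in IVF 1-cell and 5.48 and 5.25 in SCNT 1-cell embryos, which is 195% and 207% of the donor mean (donor libraries 2.46 and 2.73). It was at 4.85 and 3.77 FPKM in IVF 2-cell, 18.9 and 22.5 in SCNT 2-cell, 7.89 and 15.2 with Kdm4d and 18.3 and 27.5 with the mutant. The subunits of the ligase therefore differed: in IVF embryos Gclm did not pass the test between the stages (−0.20, SE 0.26, limma adjusted p = 0.549), whereas in SCNT embryos it rose 3.85-fold (1.76, SE 0.26, limma adjusted p = 9.62e-05). The rise to Kdm4d embryos (0.91, SE 0.26, limma adjusted p = 0.00857) was lost without Kdm4d replicate 2 (0.48, adjusted p = 0.0992). Kdm4d embryos were lower than mutant Kdm4d embryos (−0.97, SE 0.26, limma adjusted p = 0.0114). That call was lost without Kdm4d replicate 1 (−0.54, adjusted p = 0.0831) or mutant replicate 2 (−0.69, adjusted p = 0.0725).

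The stretch before the Gclm start is shown because Gclm is a textbook target of Nrf2, which binds the antioxidant response element (GRCm38.p6, plus strand, 170 bases to the last base before the start). Capitals mark the core TGACNNNGC, here on the other strand, and CCAAT on the other strand; no marked motifs overlap.
Gclm, chr3:122245387-122245556: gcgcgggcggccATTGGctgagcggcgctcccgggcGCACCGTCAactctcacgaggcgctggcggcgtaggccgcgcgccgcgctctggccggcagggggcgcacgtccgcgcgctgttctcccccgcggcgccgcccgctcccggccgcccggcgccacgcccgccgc
Gclm was the only member of the 7 with an entry to hold this core, which 10.2% of all promoters hold.

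Gss (chr2:155388919-155418442), which completes glutathione, was at 0.512 and 0.383 FPKM in IVF 1-cell and 0.162 and 0.374 in SCNT 1-cell embryos, and at 11.3 and 7.90 in donor cells. It was at 6.84 and 4.80 FPKM in IVF 2-cell, 3.82 and 3.05 in SCNT 2-cell, 10.3 and 7.77 with Kdm4d and 1.56 and 2.80 with the mutant. Gss was the only member lower in both SCNT 2-cell libraries than in both IVF 2-cell libraries, and Kdm4d libraries were the highest of the embryos. It was 4.14-fold higher with Kdm4d than with the mutant (1.67, SE 0.26, limma adjusted p = 0.000396) and higher than in SCNT 2-cell embryos (1.17, SE 0.26, limma adjusted p = 0.00356), the latter lost with equal FPKM sums (0.60, adjusted p = 0.0869). The mutant group was lower than IVF 2-cell embryos (−1.11, SE 0.26, limma adjusted p = 0.00315). Of its 50-base stretches 10.3% also occur in other genes, among them its neighbour Acss2.

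Gsr (chr8:34763710-34808634), the reductase that recycles glutathione, was highest in donor cells at 93.6 and 95.2 FPKM. At the 1-cell stage it was at 2.14 and 2.28 FPKM in IVF and 2.78 and 2.62 in SCNT embryos, and at the 2-cell stage at 5.81 and 6.18 in IVF and 20.5 and 15.3 in SCNT embryos. Kdm4d embryos had 7.49 and 9.33 FPKM and mutant Kdm4d embryos 15.7 and 18.8. The groups of 2-cell embryos lay in the order IVF, Kdm4d, then SCNT and mutant Kdm4d, the last pair overlapping. Gsr rose 6.63-fold between the stages in SCNT embryos (2.34, SE 0.17, limma adjusted p = 3.57e-07) and 2.71-fold in IVF embryos (1.12, SE 0.17, limma adjusted p = 9e-05). Kdm4d embryos were lower than mutant Kdm4d embryos by 2.05-fold (−0.96, SE 0.17, limma adjusted p = 0.00102), and their difference from IVF 2-cell embryos was 0.42 (SE 0.17, limma adjusted p = 0.104).

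**Figure D3:**
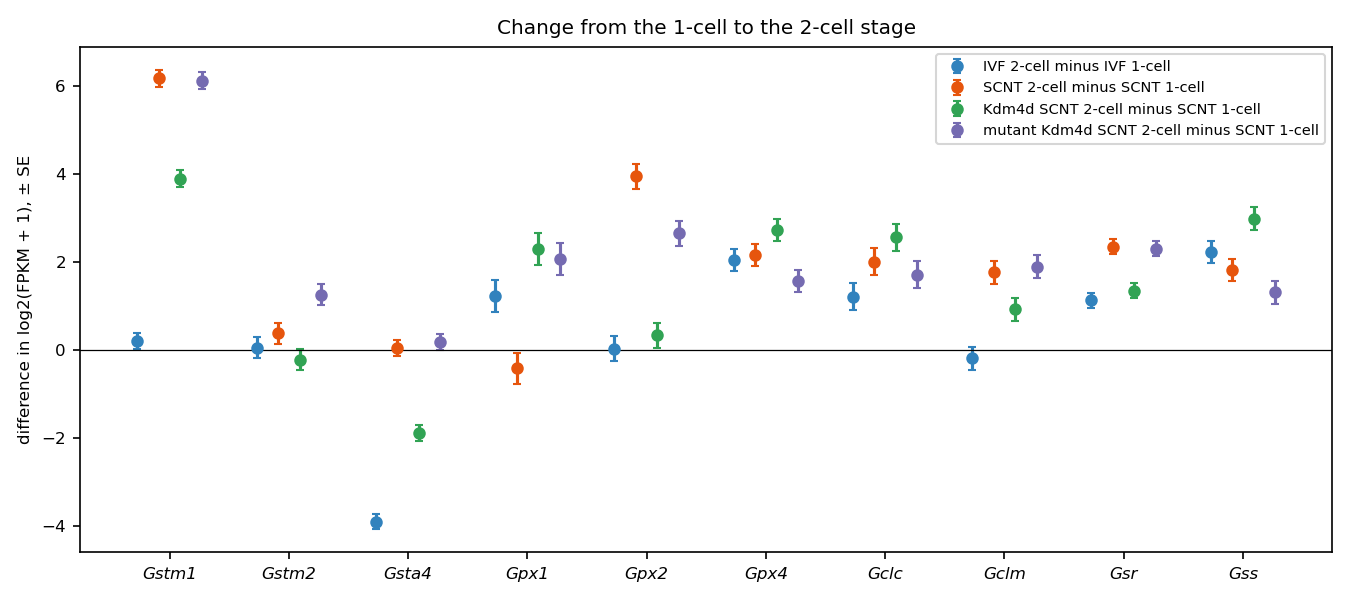
Difference of each gene between the 1-cell and the 2-cell stage on the log2(FPKM + 1) scale, in IVF embryos and from SCNT 1-cell embryos to each of the 3 SCNT 2-cell groups; bars are the SE of limma's fit. The 3 SCNT series share the SCNT 1-cell libraries, which had no overexpression, so in the Kdm4d and mutant series stage and overexpression cannot be told apart. Gsta4 was lower by 3.91 in IVF embryos and by 1.90 with Kdm4d; in SCNT and mutant Kdm4d embryos the plotted values are 0.04 and 0.17, which quantile normalization moved to 0.73 and 0.52, both past the test.

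Across the set, donor cells differed from IVF 1-cell embryos at 9 of 10 members, 7 higher and 2 lower (Gsta4 and Gclm), where 77.9% of all tested genes were called. The Gclm call was lost with any 1 of the 4 libraries left out (adjusted p = 0.0525 to 0.0888), with a pseudocount of 5 (adjusted p = 0.085), with equal FPKM sums (adjusted p = 0.201) and without a filter (adjusted p = 0.0508). Between SCNT and IVF 1-cell embryos 1 of 10 was called, Gpx1, against 2.31% of all genes. From the 1-cell to the 2-cell stage, 6 of 9 members were called in IVF embryos (5 higher and 1 lower) against 67.6% of all genes. In SCNT embryos 6 of 9 were called, all higher, against 67.0%, of which 4772 genes were higher and 4242 lower. In a fit to the 4 SCNT libraries alone Gpx1 was also called, lower (limma adjusted p = 0.0235). The shares called lie near those of all genes. To the Kdm4d group, 8 of 10 members were called (7 higher and 1 lower, all genes 67.6%), and to the mutant group 9 of 10, all higher (all genes 59.8%). Some of these counts include Gpx2 or Gstm2, whose calls for the groups that let them pass the filter add no support.

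At the 2-cell stage the Kdm4d and mutant Kdm4d groups differed at 9 of 10 members, 6 lower and 3 higher with Kdm4d, where 43.8% of all genes were called. The lower ones were the 3 transferases, Gpx2, Gclm and Gsr, and the higher ones Gpx4, Gclc and Gss. Gstm2 and Gpx2 passed the filter only through groups where they were high, so their calls for those groups add no support to the counts. The median over the 10 members, Gstm2 and Gpx2 included, was −0.96 against −0.09 over all tested genes. For that reason it is a description only. In a limma fit to these 4 libraries alone 0 members were called and 7 had an unadjusted p under 0.05, as 0 of all 13453 genes were called there; the adjusted p of Gstm1, Gsta4 and Gpx2 was 0.0616, and 6 were called with group weights, where 16.7% of all genes were called. Against SCNT 2-cell embryos, 6 of 9 members were called with Kdm4d (2 higher and 4 lower, all genes 39.5%) and 3 of 9 with the mutant (2 higher and 1 lower, all genes 17.7%). The latter count was 1 without SCNT 2-cell replicate 1. Against IVF 2-cell embryos, 4 of 9 were called with Kdm4d, all higher (Gsta4, Gpx1, Gclc and Gclm, all genes 20.3%), and 7 of 9 with the mutant (6 higher and 1 lower, all genes 54.4%). The Kdm4d count against IVF was 2 without IVF 2-cell replicate 2 or Kdm4d replicate 2. These comparisons share libraries and do not count as separate evidence.

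**Figure D4:**
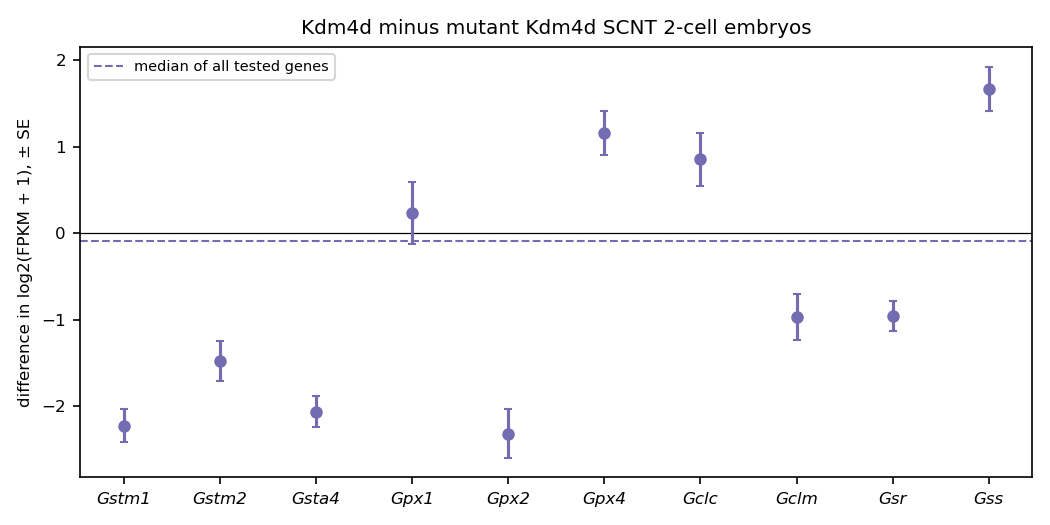
Difference of each of the 10 genes between Kdm4d and mutant Kdm4d SCNT 2-cell embryos on the log2(FPKM + 1) scale (y axis); points are differences of the means of 2 libraries a group, bars the SE of limma's fit to all 14 libraries, and the dashed line the median of all tested genes, at −0.09. Gpx2, Gstm1 and Gsta4 lie lowest, between −2.07 and −2.32, and Gss highest at 1.67.

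The comparison that served to choose the list, SCNT against IVF 2-cell embryos, is described without a test. Both SCNT libraries were above both IVF libraries for 7 members and below for Gss, while Gpx1 and Gpx4 overlapped, so 8 of 10 did not overlap; among all tested genes 78.8% did not overlap and 46.9% were called. The differences were 6.62 for Gstm1, 3.95 for Gpx2, 3.82 for Gsta4, 2.03 for Gclm, 1.42 for Gsr, 0.66 for Gclc, 0.51 for Gstm2, 0.10 for Gpx1, 0.07 for Gpx4 and −0.61 for Gss. Quantile normalization, which moved the median of all genes from 0.23 to about 0, turned Gpx4 to −0.19 and moved Gpx1 to 0.50, Gstm2 to 0.20 and Gss to −0.95.

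Other genes of the pathway were read from 7 lists of 95 genes in all, of which 87 were tested. Between Kdm4d and mutant Kdm4d embryos 15 were higher and 34 lower, with a median of −0.40 against −0.09 over all genes, of which 21.4% were called higher and 22.5% lower. Other glutathione transferases accounted for 13 of the lower genes: of 20 tested, 13 were lower and 0 higher by limma (0 higher and 15 lower at an unadjusted p under 0.05). The 13 include Gstm3, which entered the test through groups where it was high. Mgst2, a microsomal transferase, was at a mean of 0.963 FPKM with Kdm4d and 9.14 with the mutant (−2.36, SE 0.26, limma adjusted p = 5.97e-05), and between SCNT and IVF 2-cell embryos at 9.60 against 0.542. In the latter comparison, which served to choose the members, 11 of the 20 were higher and 1 lower, Mgst3, at 59.2 against 165 FPKM. Of all genes 30.3% were called higher there and 16.6% lower. These counts are a description and add no support. Mixed directions held for the other peroxidases and superoxide dismutases with Kdm4d against the mutant (3 higher and 4 lower of 13) and for thioredoxin and glutaredoxin genes (5 higher and 5 lower of 13).

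Named genes of the other lists moved in both directions between Kdm4d and mutant Kdm4d embryos. Txnrd1, thioredoxin reductase, was lower at 2.07 against 8.98 FPKM (−1.74, SE 0.22, limma adjusted p = 0.000128), and Txn1, thioredoxin, at 5.08 against 15.2. Idh1, which supplies NADPH in the cytosol, was lower at 11.01 against 48.3 FPKM (−2.08, SE 0.19, limma adjusted p = 2.62e-05), whereas Pgd of the pentose phosphate pathway was higher at 15.6 against 5.26. Glrx2, a mitochondrial glutaredoxin, was higher at 19.4 against 5.22 FPKM (1.74, SE 0.20, limma adjusted p = 8.91e-05), and Sod1, which makes hydrogen peroxide from superoxide, at 577 against 238. Hmox1, a classic Nrf2 target, was lower at 2.56 against 7.12 FPKM. Of 14 genes of the Nrf2 list 4 were called lower and 1, Bach1, higher, where 22.5% of all genes were called lower and 21.4% higher. The median of that list was −0.29 against −0.09 over all genes. Between SCNT and IVF 2-cell embryos Txnrd1 was at 11.5 against 0.594 FPKM, Txn1 at 9.80 against 2.46, Idh1 at 31.5 against 8.58 and Hmox1 at 2.78 against 0.386, all higher in SCNT embryos. Glrx2 was lower there at 3.21 against 23.1 FPKM and Pgd at 7.38 against 13.4, while the Sod1 libraries overlapped.

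The genes whose levels ran most like each member were taken by Pearson's r over the 7 group means of log2(FPKM + 1), among 8952 genes; with so many genes and 7 points, high values are given as a description. For Gstm1 these were Nudt9 (r = 0.9985), Plbd1 (0.997), Impact (0.994), 2510009E07Rik (0.990) and Xrcc1 (0.988). Nudt9 was at 21.8 and 21.6 FPKM in SCNT 2-cell, 21.6 and 20.9 in mutant Kdm4d, 10.1 and 10.6 in Kdm4d and 3.11 and 1.60 in IVF 2-cell embryos, a smaller span than that of Gstm1. For Gpx2 the nearest was Aqp3 (0.992), a water and glycerol channel at 19.6 and 16.1 FPKM in SCNT 2-cell, 6.00 and 9.80 in mutant Kdm4d and 1.07 and 0.994 in Kdm4d embryos. The nearest of Gsta4 were Enah (0.976) and Txnrd1 (0.975), of Gclm Atp6v1c2 (0.990), of Gsr Tagln2 (0.997), of Gstm2 Fhl2 (0.9995), of Gclc Pomc (0.987) and of Gpx1 1110008P14Rik (0.956). Gpx4 and Gss ran most like Asl (0.998) and Mrpl28 (0.994). Among the members themselves, Gpx4 and Gss were the most alike (0.950) and Gsta4 and Gss the least (−0.59).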

How the data were processed

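The authors deposited FPKM values for 23697 rows and 14 libraries. Per the submitters' processing notes, Novoalign (version not given), Cufflinks 2.0.2 and genome build mm9 were used; the sources used here name no annotation, filter or treatment of multiply mapped reads. From these values, 805 short-RNA rows were left out and rows of 1 symbol summed, giving 22492 symbols. Group means of log2(FPKM + 1) over all 14 libraries were compared with limma 3.58.1 (R 4.3.3, empirical Bayes with a trend) for the 13453 genes that reached 1 FPKM in 2 or more libraries, with Benjamini-Hochberg adjustment in each comparison, a threshold of 0.05 and 7 residual degrees of freedom. The fit was tested on simulated data. Members and gene lists were chosen with earlier results of these data known. Besides the members, the text names the other Gstm genes of the cluster, up to 2 called genes a direction from each list whose mean reached 5 FPKM in a group and whose libraries did not overlap, and each member's nearest genes. Shared sequence was read from GENCODE M21 transcripts and promoters from RefSeq. Alternatives changed the pseudocount, scaling, filter, spread, replicate block, summing of rows and the libraries used.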

Additional observations from a re-analysis of the deposited data

Results flagged for a closer look

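Gpx1 changed between the 1-cell and the 2-cell stage in opposite directions in the 2 kinds of embryo: both SCNT 2-cell libraries lay below both SCNT 1-cell libraries (difference −0.43 on the log2 scale), and both IVF 2-cell libraries above both IVF 1-cell libraries (1.22). The difference between these changes was not tested, and the SCNT change alone did not pass the test (limma adjusted p = 0.317), though a fit to the 4 SCNT libraries alone called it lower (limma adjusted p = 0.0235). The IVF change was lost without IVF 1-cell replicate 1 (0.60, limma adjusted p = 0.15) or IVF 2-cell replicate 1 (1.03, limma adjusted p = 0.0759). Under quantile normalization, which changed the scaling of all libraries, the SCNT difference was 0.13.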

How the results depend on the processing

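Of 68 single calls, 46 held under every alternative, and over 680 alternative settings 635 kept the call, 45 lost it and 0 reversed. The settings were not equally able to change a call. With a filter of at least 5 FPKM, with the replicate block and with the highest row per symbol, 0 were lost. The last of these left the values of the members unchanged. The 68 include calls of Gpx2 and Gstm2 that add no support. Of the 45 losses, 20 came from fits to the 2 groups compared only. Between donor cells and IVF 1-cell embryos such a fit called 84.4% of all genes, against 77.9% in the fit to all libraries. The robust SD of replicates was 0.359 with Kdm4d and 0.371 with its mutant, and 0.0924 to 0.182 in the other groups. The part of this spread in the losses was not tested. The count of members called between SCNT and IVF 1-cell embryos (1) was 2 with a pseudocount of 0.1 and with group weights (where 30.3% of all genes were called), 0 with quantile normalization and without a filter (2 members at an unadjusted limma p under 0.05 in each), and 0 to 1 with a library left out. Between mutant Kdm4d and SCNT 2-cell embryos (3) it was 1 with a pseudocount of 0.1, 0 with group weights (4.18% of all genes called) and in the fit to the groups compared only (0 of 13453 genes called, 2540 unadjusted), with 3 members unadjusted in each, and 1 to 4 with a library left out. Between Kdm4d and mutant Kdm4d embryos (9) it was 0 in the fit to the groups compared only (7 unadjusted), which called 0 of all genes. Between Kdm4d and IVF 2-cell embryos (4) it was 2 with equal FPKM sums and 1 in the fit to the groups compared only. That fit called 1.04% of all genes, against 20.3% in the fit to all libraries. The cause of these changes was not tested. With the replicate number as a block, 9 members were called between Kdm4d and mutant Kdm4d embryos, as without it, and the replicate block changed no count. Same-numbered libraries deviated with r from −0.25 to 0.30 over 21 group pairs, 2 of them above 0.1. The numbers thus do not pair the libraries across all groups. The highest r was that of Kdm4d with mutant Kdm4d embryos, and whether those libraries were handled in pairs is not known. Values below 1 FPKM rest on few fragments, so differences among such libraries were not resolved.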
